A study of Homo sapiens with 4 samples.

Results

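The 10 genes described here encode the HLA class II antigen presentation machinery: the alpha and beta chains of HLA-DM (HLA-DMA, HLA-DMB), HLA-DP (HLA-DPA1, HLA-DPB1), HLA-DR (HLA-DRA, HLA-DRB1) and HLA-DQ (HLA-DQA1, HLA-DQB1), the invariant chain CD74 and the transactivator CIITA. They were taken by name from the 26485 gene names of the deposited tables, and the values of rows that share a name were added. The series holds RNA sequencing of SW1736 and 8505C, 2 cell lines derived from anaplastic thyroid cancer, each as the parental line (SW1736 wt, 8505C wt) and as a derivative resistant to paclitaxel, a drug that stabilises microtubules (SW1736-PTX, 8505C-PTX). The PTX lines had been exposed to rising paclitaxel, from 1 nM up to 1.5 µM, over 6 months, and were then kept in 1.5 µM of the drug, whereas the labels give the wt lines no drug. Each condition was sequenced as 1 library, so no difference below has a replicate check, and the 2 lines are not replicates of each other.

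Class II molecules present peptides from endosomes to CD4 T cells. DP, DQ and DR carry the peptide to the cell surface, DM catalyses peptide exchange in the endosome, and CD74 occupies the groove until proteases remove it. In professional antigen presenting cells, and in many other cells exposed to interferon gamma, CIITA switches these genes on together by docking on RFX, CREB and NF-Y factors bound to the X and Y boxes of their promoters. Thyroid epithelial cells are known to show class II in autoimmune thyroid disease.

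Levels are given as FPKM (fragments per kilobase of transcript, scaled to the fragments mapped in the library), in the order SW1736 wt, SW1736-PTX, 8505C wt, 8505C-PTX wherever 4 values follow each other. Depth, estimated from the coverage columns, ranged from 43.5 M to 57.9 M reads of 75 bases. A gene was compared in a pair of libraries when it exceeded 0.5 FPKM in at least 1 of them, and it was called higher or lower when the log2 ratio of FPKM + 0.1 passed 1.5 or -1.5. The added 0.1 makes these log2 values understate the change of genes with low levels. ABCB1, the drug efflux pump, had 0, 302, 0.363 and 497 FPKM, so it was high in the PTX libraries of both lines. SW1736-PTX stood apart from its parent: its Pearson correlation across genes was 0.767 with SW1736 wt, 0.873 with 8505C wt and 0.933 with 8505C-PTX. The thyroid factor PAX8 (38.2, 0.206, 0.123 and 0.146 FPKM) was high in SW1736 wt alone, and NKX2-1 (0, 36.3, 30.5 and 39.0) in every library but that of SW1736 wt. Whether the library labelled SW1736-PTX is of the line on its label was not tested. For named genes, its call against 8505C wt is given as well where it differs from that against SW1736 wt. FOXE1, another thyroid factor, had 26.6, 0.511, 0.0443 and 0.178 FPKM. TG and TSHR, which mark differentiated thyroid cells, did not exceed 0.006 FPKM. The keratins KRT8 (331 to 974) and KRT18 (257 to 1437) and the mesenchymal marker VIM (1321 to 3684) were abundant in every library. The other epithelial markers, EPCAM (0, 0, 0.0806 and 0.0720) and CDH1 (0.0277, 0.0239, 0.0108 and 0), were near 0 in every library. Of 13 markers of B, myeloid, dendritic and T cells, 6 were listed at 0 in every library, and their summed level ranged from 0.631 to 4.89 FPKM. The single marker above 0.5 was CD14 (0.894, 0.707, 0.576 and 4.50), while PTPRC, the pan-leukocyte marker, stayed at or below 0.020.

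The class II genes divided into those with reads and those without (the plot of the members' levels). HLA-DM and HLA-DP genes were present in the PTX libraries, HLA-DR and HLA-DQ genes were listed at 0 throughout, and neither CD74 nor CIITA followed the DM and DP genes. Of the 10 members, 1 exceeded 0.5 FPKM in the wt and 3 in the PTX library of SW1736, and 0 and 4 did so in those of 8505C. Summed over the members, the level was 1.57, 5.23, 0.446 and 13.7 FPKM. CD74 made up most of the SW1736 wt sum and HLA-DMA most of the 8505C-PTX sum. In these bulk samples, more cells expressing a gene and more RNA per expressing cell cannot be told apart.

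**Figure D1:**
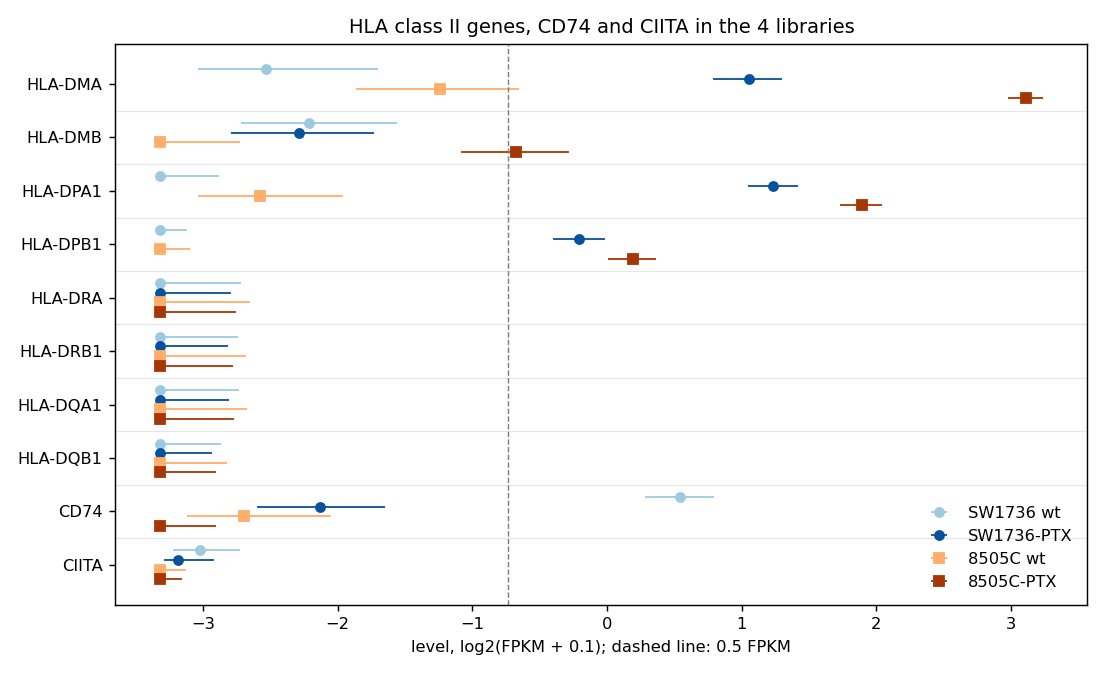
FPKM of each member in the 4 libraries; error bars are exact Poisson 95% intervals of the estimated reads, they cover counting error only, and for a gene listed at 0 they end at 3 reads. HLA-DMA, HLA-DPA1 and HLA-DPB1 stand highest in 8505C-PTX (8.53, 3.61 and 1.04) and next in SW1736-PTX (1.97, 2.25 and 0.764), CD74 stands highest in SW1736 wt (1.35), and the DR and DQ genes are listed at 0.

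HLA-DMA, the DM alpha chain (chr6:32948614-32953122, minus strand, 5 exons, hg38), had 0.0729, 1.97, 0.323 and 8.53 FPKM. Both PTX libraries lay above both wt libraries, and 8505C-PTX was the highest. CD14 was highest in that library as well (4.50 FPKM), with the other 12 leukocyte markers at or below 0.214; its part in the result was not tested. The ratio was 27.1 in SW1736 (95% interval 9.24 to 90.7) and 26.4 in 8505C (15.8 to 49.2), or log2 changes of 3.58 and 4.35 on the FPKM + 0.1 scale. These intervals are exact binomial limits on how the estimated reads divide between the 2 libraries, scaled by depth. The reads were about 4 and 115 in SW1736 and 14 and 460 in 8505C, and the intervals cover counting error only. Against 8505C wt, SW1736-PTX was 6.10-fold higher (3.54 to 11.7; log2 2.29).

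HLA-DMB, the DM beta chain (chr6:32934629-32941070, minus strand), encodes the partner without which the DM heterodimer does not form. Its levels were 0.116, 0.105, 0 and 0.525 FPKM, so it passed 0.5 in 8505C-PTX alone and was near its own wt level in SW1736-PTX. In 8505C it was called higher (log2 2.64), at 10.3-fold over a floor of 3 reads in the wt library, with a lower 95% limit of 7.97. Its 38 estimated reads are the fewest of any member called higher. In SW1736 it was not compared, and its log2 ratio there was -0.08. HLA-DMA stood 18.8-fold above HLA-DMB per length in SW1736-PTX and 16.3-fold above it in 8505C-PTX, so the chains of the heterodimer were present at very unequal RNA levels.

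HLA-DPA1, the DP alpha chain (chr6:33064569-33080778, minus strand), had 0, 2.25, 0.0679 and 3.61 FPKM. It was listed at 0 or rested on about 5 estimated reads in the wt libraries and reached 222 and 329 reads in the PTX libraries. Over the read floor of a gene listed at 0, the change in SW1736 was 62.5-fold (log2 4.55), with a lower 95% limit of 50.4. In 8505C it was 53.1-fold (22.7 to 166; log2 4.47). Against 8505C wt, SW1736-PTX was 33.1-fold higher (14.1 to 104; log2 3.81).

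HLA-DPB1, the DP beta chain (chr6:33075926-33089696, plus strand), had 0, 0.764, 0 and 1.04 FPKM. Its pattern was that of HLA-DPA1 at a lower level: listed at 0 in both wt libraries, where 3 reads would have given 0.015 to 0.017 FPKM, and present in both PTX libraries. Over that floor of 3 reads, the change was 49.8-fold in SW1736 (log2 3.11) and 60.3-fold in 8505C (log2 3.51). The lower 95% limits were 40.1 and 48.5. HLA-DPA1 stood 2.94-fold above HLA-DPB1 in SW1736-PTX and 3.47-fold above it in 8505C-PTX. The rows of the DP genes overlap by 4853 bases on opposite strands and the strand setting of the counting is not stated, so reads of that stretch cannot be assigned between them.

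HLA-DRA and HLA-DRB1, the chains of the DR heterodimer, and HLA-DQA1 and HLA-DQB1, those of DQ, were listed at 0 in all 4 libraries. DR is commonly the most abundant class II molecule on antigen presenting cells. At this depth, 3 reads would have given 0.031 to 0.059 FPKM for these genes, so levels under that were not detectable. Rows of HLA-DRA, HLA-DRB1 and HLA-DQB1 on alternate chromosome 6 haplotypes were at 0 too, and so were those of the DM and DP genes. HLA-DQA1 had no such row. Of 16 housekeeping genes, 0 were listed at 0 and the lowest had 8.96 FPKM. That count does not bear on whether reads of HLA alleles unlike the reference were aligned, which was not tested.

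CD74, the invariant chain (chr5:150401637-150412936), had 1.35, 0.128, 0.0545 and 0 FPKM. It was the single member above 0.5 FPKM in SW1736 wt and the single one called lower anywhere. SW1736-PTX was 10.6-fold below SW1736 wt (log2 -2.67; about 12 against 110 estimated reads). Against 8505C wt the sign turned, to a log2 ratio of 0.56, with both libraries under 0.5 FPKM and so not compared. In 8505C the gene was at about 4 estimated reads in the wt library and 0 in the PTX library and was not compared. CD74 was thus listed at 0 in the library where HLA-DMA, HLA-DPA1 and HLA-DPB1 were highest.

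CIITA, the transactivator (chr16:10877198-10924983, plus strand, 20 exons), had 0.0233, 0.00984, 0 and 0 FPKM. These levels correspond to about 5, 3, 0 and 0 estimated reads, so the gene was compared in no pair. The ratio of SW1736-PTX to SW1736 wt was 0.42 with a counting interval of 0.079 to 2.61, which spans no change. No increase of CIITA RNA beside the DM and DP genes was detectable at this depth in either line.

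Counted together, 3 of the 4 members compared in SW1736 were called higher and 1 lower, where 15.7% of the 14202 genes compared were called higher and 10.2% lower (25.9% in either direction). In 8505C all 4 members compared were called higher, where 15.0% of 13794 genes were called higher and 5.89% lower (20.9% in either direction). HLA-DMA, HLA-DPA1 and HLA-DPB1 were called higher in both lines, and HLA-DMB in 8505C alone. The median log2 change of the members compared was 3.35 in SW1736 and 3.93 in 8505C, beside 0.01 and 0.11 over all genes compared. Each of these members passed the 0.5 FPKM minimum through 1 library of the pair only, CD74 through SW1736 wt and the others through the PTX library, and so had to be higher there, which means that these counts and medians describe the members compared and do not stand for all 10. With 1 added to FPKM in place of 0.1, the calls of HLA-DMA in SW1736 (log2 1.47), HLA-DPB1 in both lines (0.82 and 1.03), HLA-DMB in 8505C (0.61) and CD74 in SW1736 (-1.06) were lost, and HLA-DPA1 remained called in both lines (1.70 and 2.11) and HLA-DMA in 8505C (2.85). With 8505C wt as the reference, 3 of 3 members compared were called higher in SW1736-PTX (15.1% of all genes compared were called higher and 5.23% lower, 20.4% in either direction).

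**Figure D2:**
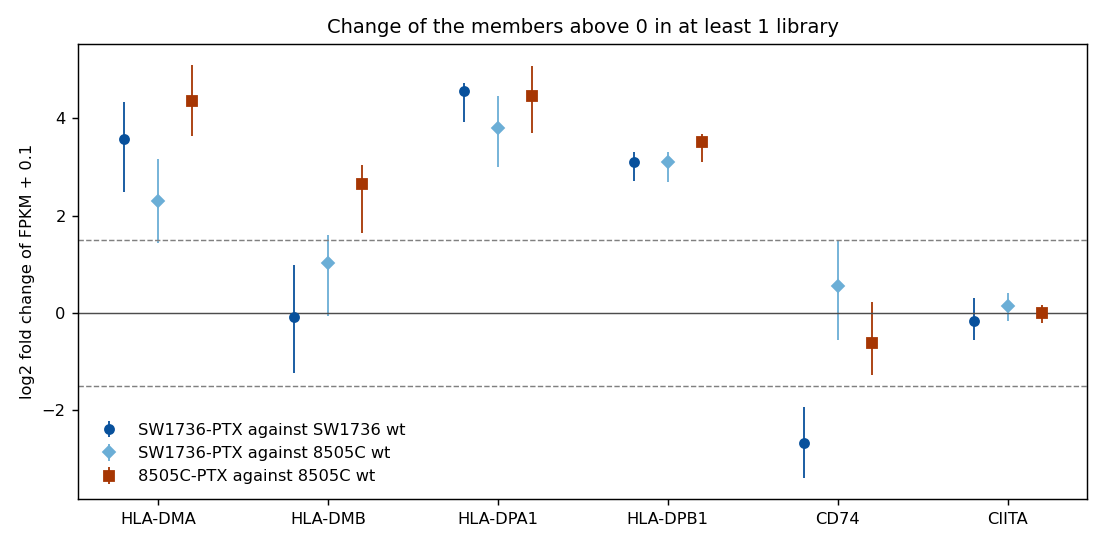
log2 ratio of FPKM + 0.1 for the 6 members above 0 in at least 1 library. Shown are SW1736-PTX against SW1736 wt, 8505C-PTX against 8505C wt and SW1736-PTX against 8505C wt. Bars join the opposite 95% Poisson limits of the 2 libraries and differ from the ratio intervals of the text. Dashed lines mark 1.5 and -1.5. HLA-DMA, HLA-DPA1 and HLA-DPB1 lie above the upper line in all 3 comparisons, and CD74 lies below the lower line (-2.67) against its own parent and at 0.56 against 8505C wt.

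Between the parental lines, 1 member could be compared: CD74 was 24.9-fold lower in 8505C wt than in SW1736 wt (log2 -3.23), where 9.92% of genes compared were called lower and 7.73% higher (17.6% in either direction). CD74 passed the minimum through SW1736 wt alone and could be called in that direction only, so the share is no measure for it. Between the PTX lines, 2 of 4 members compared were called higher in 8505C-PTX, where 3.70% of all genes compared were called higher and 4.09% lower (7.79% in either direction). HLA-DMA was 4.32-fold higher in 8505C-PTX than in SW1736-PTX (3.52 to 5.35; log2 2.06) and HLA-DMB 5.00-fold higher (2.36 to 12.7; log2 1.61), the latter having passed the minimum through 8505C-PTX alone. HLA-DPA1 (1.60-fold, 1.35 to 1.91; log2 0.66) and HLA-DPB1 (1.36-fold; log2 0.40) were not called. Both DM genes thus stood further apart between the PTX lines than either DP gene; whether the DM and DP ratios differ beyond the spread between cultures was not tested.

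The promoters of the members are shown because CIITA has no DNA contact of its own and acts through the X and Y boxes that class II genes share. RefSeq windows (GRCh38.p14, 250 bases before to 50 after each start) were found for 8 of the 10 members. Each stretch below is 80 bases long, written 5′ to 3′ on the gene's strand, with capitals marking the letters of the X box (CNAG, followed directly by NNA and NNNATG, where N is any base) and of the Y box (ATTGG) and with CCAAT standing for ATTGG on the other strand. The stretches lie at chr6:32953145-32953224 (minus strand), chr6:32941051-32941130 (minus strand), chr6:33073685-33073764 (minus strand), chr6:33075844-33075923 (plus strand), chr6:32666713-32666792 (minus strand) and chr6:32589862-32589941 (minus strand).
HLA-DMA: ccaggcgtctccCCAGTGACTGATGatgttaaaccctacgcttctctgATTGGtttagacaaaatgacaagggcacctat
HLA-DMB: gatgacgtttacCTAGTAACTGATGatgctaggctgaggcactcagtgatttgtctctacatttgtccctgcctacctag
HLA-DPA1: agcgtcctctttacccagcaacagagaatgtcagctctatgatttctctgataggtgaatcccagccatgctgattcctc
HLA-DPB1: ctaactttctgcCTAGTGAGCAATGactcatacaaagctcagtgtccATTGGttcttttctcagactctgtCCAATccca
HLA-DQB1: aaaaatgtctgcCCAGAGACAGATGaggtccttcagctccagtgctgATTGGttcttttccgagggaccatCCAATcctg
HLA-DRB1: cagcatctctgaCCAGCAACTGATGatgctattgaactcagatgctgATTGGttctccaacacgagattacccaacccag

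The X letters occurred in 5 members (HLA-DMA, HLA-DMB, HLA-DPB1, HLA-DQB1 and HLA-DRB1), against 2.41% of 35116 RefSeq windows on either strand. The Y letters occurred in 7 members, against 34.6% of windows. X letters followed within 30 bases by Y letters were held by 4 members and by 0.0484% of windows, 17 in all, on the gene's strand. Of those 4, HLA-DMA and HLA-DPB1 were called higher in both lines, and HLA-DQB1 and HLA-DRB1 were listed at 0 in every library. HLA-DPA1, with no exact match in either of its windows, was called higher in both lines too. Members with and without the X letters were thus found among those called higher and among those listed at 0, where HLA-DQA1 had none. The Y letters were held by every member listed at 0 that had a window, and HLA-DRA had no window. The X letters were set after the members' promoters had been seen and are a description of these windows. Near forms of the letters were not counted, and whether HLA-DPA1 holds such forms was not tested.

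**Figure D3:**
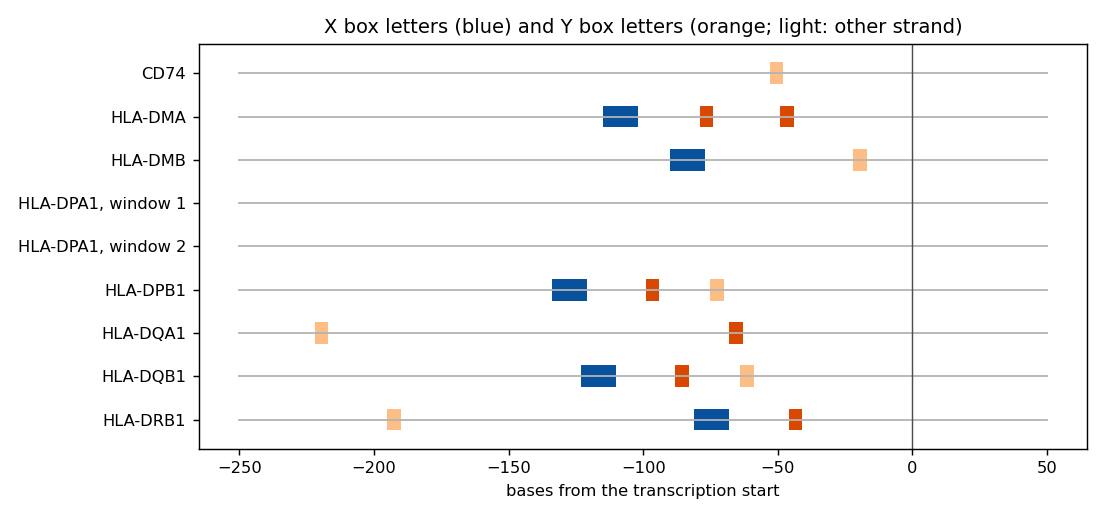
Positions of the X letters (blue) and Y letters (orange, light on the other strand) in the RefSeq promoter windows of the members as bases from the start site. X letters precede Y letters in HLA-DMA, HLA-DPB1, HLA-DQB1 and HLA-DRB1, of which the last pair was listed at 0 in all 4 libraries.

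The factors that hold CIITA on these promoters were expressed in every library, and the list of 10 showed 0 called higher and 1 called lower in SW1736 and 0 called in 8505C. Over all genes compared, 15.7% were called higher and 10.2% lower in SW1736, and 15.0% and 5.89% in 8505C. The RFX subunits had 7.56, 9.28, 12.7 and 14.7 FPKM for RFX5, 38.1, 17.0, 22.0 and 21.6 for RFXANK, and 4.12, 1.32, 3.09 and 1.53 for RFXAP. RFXAP was the factor called lower in SW1736 (log2 -1.57), with values of -0.97 in 8505C and -1.17, not called, for SW1736-PTX against 8505C wt. The NF-Y subunits NFYA, NFYB and NFYC, with CREB1, ATF1, RFX1 and the CIITA partner ZXDC, stayed between log2 -0.87 and 1.14 in both lines. The median of the list was -0.10 in SW1736 and -0.16 in 8505C.

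The route from interferon gamma to CIITA, listed as 11 genes, likewise held 0 genes called higher in either line, beside 15.7% and 15.0% of all genes compared. Of 10 compared, 1 was called lower in each line, beside 10.2% in SW1736 and 5.89% in 8505C. IFNG itself was listed at 0 in all libraries. Its receptor chain IFNGR1 had 9.63, 19.0, 17.9 and 28.3 FPKM, and IFNGR2 had 31.8, 7.90, 20.3 and 20.9, called lower in SW1736 (log2 -2.00), not called against 8505C wt (-1.35) and at 0.04 in 8505C. JAK2, the kinase bound to IFNGR2, went from 3.79 to 1.29 FPKM in the SW1736 pair, a log2 change of -1.49 that was not called, and was called lower in 8505C (-1.65). The other kinase JAK1 (27.3 to 36.8 FPKM), IRF1 (6.70 to 12.1), IRF2 (8.73 to 15.5), USF1 (17.8 to 21.4), the inhibitor SOCS1 (0.590 to 1.53) and the phosphatase PTPN2 (14.4 to 18.7) were not called. Median changes were -0.26 and 0.18. Of 11 other CIITA regulators, 7 were compared and the histone methyltransferase EZH2 (43.4, 36.0, 18.7 and 6.42 FPKM) was called lower in 8505C (log2 -1.53).

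Genes whose RNA is known to respond to interferons were counted beside these. Of 21 such genes listed, 15 were compared. Of these 15, 6 were called higher in SW1736 and 10 in 8505C, and 0 were called lower, with medians of 1.16 and 1.88. In SW1736, 15.7% of all genes compared were called higher and 10.2% lower. In 8505C the shares were 15.0% and 5.89%. The same shares stand beside the class I counts below. Those called higher in both lines were MX1, APOL1, APOL3, BTN3A1 and BTN3A3, and all 5 were also called higher in SW1736-PTX against 8505C wt. APOL3 had 0.519, 14.0, 2.76 and 8.34 FPKM (log2 4.50 and 1.56). GBP1 was not called in SW1736 (log2 0.89) or 8505C (-0.43). The interferon-responsive genes not compared were CXCL9 and CXCL10, listed at 0 in every library, and CXCL11, GBP4, GBP5 and IDO1. The last 4 did not exceed 0.182 FPKM in any library. Among 16 class I genes, 8 were called higher in SW1736 and 5 higher and 1 lower in 8505C, with HLA-B, HLA-F and HLA-G among those higher in both. Against 8505C wt, HLA-G lost its call in SW1736-PTX (log2 1.39).

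The proteases and carriers that process class II molecules held calls in both directions. Of 16 compared, 4 were called higher and 2 lower in SW1736, beside 15.7% and 10.2% of all genes, and 6 higher and 1 lower in 8505C, beside 15.0% and 5.89%, with medians of 0.11 and 0.89. CTSS, the cathepsin that makes the final cuts in CD74, had 0.0199, 4.43, 0.0372 and 1.72 FPKM (log2 5.24 and 3.73), a pattern of low wt and higher PTX levels like that of the DP genes. IFI30, the thiol reductase of the endosome, had 7.57, 27.7, 2.04 and 18.2 (log2 1.86 and 3.10). CTSS and IFI30 were the genes of this list called higher in both lines, and both were called higher against 8505C wt too (5.05 and 3.70). The endopeptidase LGMN (6.17, 41.2, 26.3 and 55.1) and CTSL (43.5, 201, 110 and 103) were called higher in SW1736 alone (log2 2.72 for LGMN), and CTSD in 8505C alone (1.37 and 2.07). CTSV was called lower in SW1736 (log2 -2.01). Against 8505C wt none of these SW1736 calls held, with values of 0.65 for LGMN, 0.86 for CTSL and 0.88, the opposite sign, for CTSV. CTSD, not called against SW1736 wt, was called higher in SW1736-PTX against 8505C wt (2.44).

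**Figure D4:**
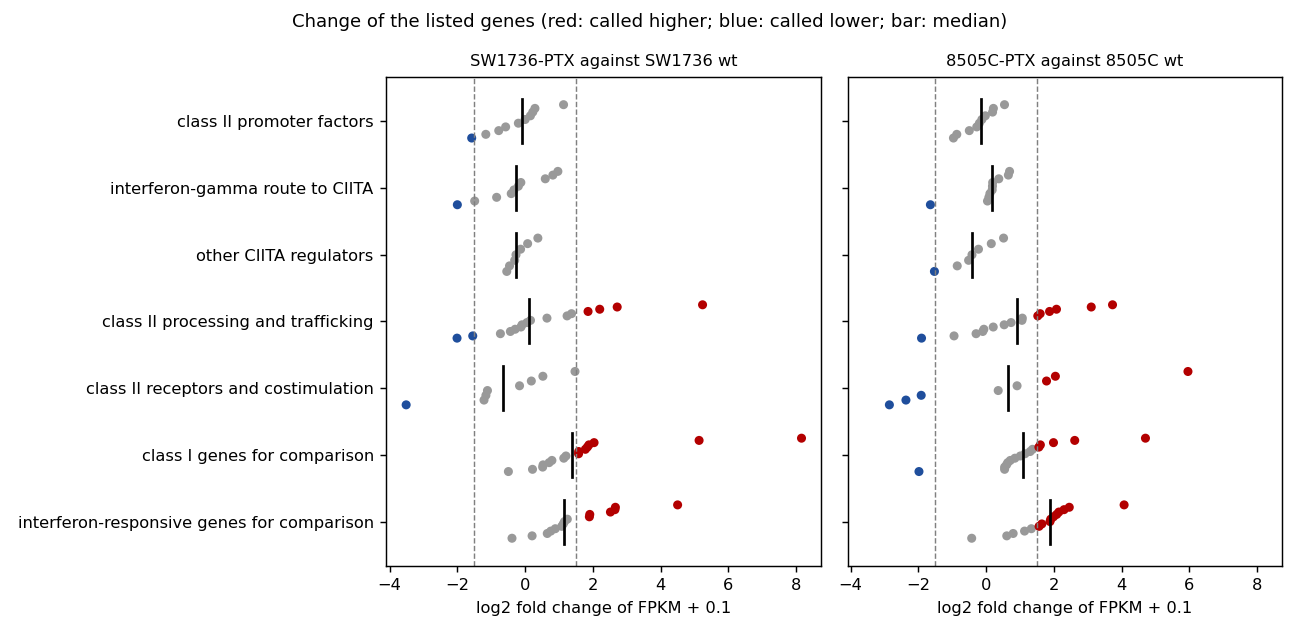
log2 changes of FPKM + 0.1 for the genes compared in 7 of the lists, with a panel for each line; dashed lines mark 1.5 and -1.5, red points were called higher, blue points lower, grey points were not called, and black bars are medians. Medians lie at -0.10 and -0.16 for the promoter factors, -0.26 and 0.18 for the interferon gamma route and 1.16 and 1.88 for the interferon-responsive genes.

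CD74 also forms a receptor for MIF, and of 4 partner genes compared CXCR4 (0, 1.10, 2.34 and 1.25 FPKM) was called higher and DDT lower (log2 -1.56) in SW1736, beside 15.7% and 10.2% of all genes. Neither was called against 8505C wt (-1.02, the opposite sign, for CXCR4 and -0.91 for DDT). MIF (626 to 956 FPKM) and CD44 (111 to 237) were abundant in every library and were not called, beside a CD74 level that did not exceed 1.35. Of the molecules that act with class II in T cell stimulation, CD80 and CD86 were listed at 0 in all libraries. CD40, the receptor for CD40 ligand, had 38.0, 3.25, 0 and 6.10 FPKM, so that SW1736-PTX lay below its parent (log2 -3.51) and above 8505C wt (5.06). In 8505C, ICAM1 (log2 1.78) and TNFSF9 (2.04) were called higher with CD40, and CD274 (-2.86), PDCD1LG2 (-2.37) and CD83 (-1.92) lower. In SW1736-PTX against its parent, TNFSF9 (-0.16) and CD274 (1.48) were not called. Against 8505C wt, TNFSF9 was called higher there (2.64) and CD274 lower (-2.67).

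The HLA class II members with reads lay at the far end of the class II region of chromosome 6. Measured from the start of HLA-DRA, the DR and DQ genes occupy the stretch up to 316 kb, HLA-DOB lies at 373 kb, and the members called higher lie at 495 kb (HLA-DMB), 509 kb (HLA-DMA), 625 kb (HLA-DPA1) and 636 kb (HLA-DPB1). HLA-DOB, the beta chain of the DM inhibitor HLA-DO, had 1.12, 1.26, 0.604 and 0.716 FPKM and was not called (log2 0.16 and 0.21). Its partner HLA-DOA, which lies between the DM and DP genes at 564 kb, had 0, 0, 0 and 0.0291. HLA-DMA stood 1.56-fold above HLA-DOB in SW1736-PTX and 11.9-fold above it in 8505C-PTX, and below it in both wt libraries. Of the other class II genes and pseudogenes listed, 9 had a row, and HLA-DOB was the one compared. The near copies HLA-DRB5, HLA-DQA2 and HLA-DQB2 were listed at 0 in every library, like the DR and DQ members they resemble.

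Genes of other function in the same region included the class I peptide transporter TAP and subunits of the immunoproteasome. Of 7 compared, 2 were called higher in SW1736, TAP1 (log2 1.78) and PSMB9 (1.89), both also against 8505C wt (1.54 and 1.99), and TAP2 was called lower in 8505C (-1.98). BRD2, between the DM genes and HLA-DOA at 529 kb, changed by 0.23 and -0.66. Within 0.5 Mb of CIITA, 0 of 7 genes compared in SW1736 were called higher and 1 lower, and 0 of 6 in 8505C were called in either direction. Within 0.5 Mb of CD74, 2 of 14 were called higher and 3 lower in SW1736, and 2 of 13 higher and 1 lower in 8505C. Over all genes compared, the shares were 15.7% higher and 10.2% lower in SW1736, and 15.0% and 5.89% in 8505C.

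**Figure D5:**
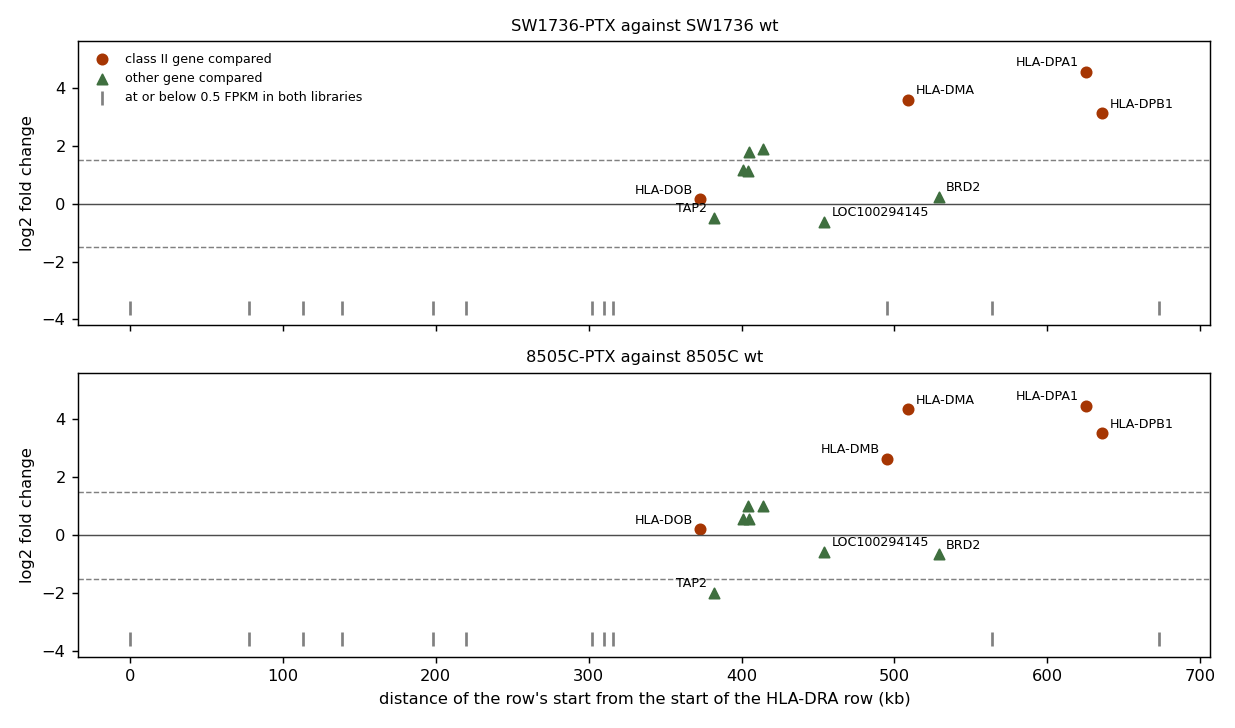
log2 change of FPKM + 0.1 against the distance of each gene's start from the start of HLA-DRA, for the class II region; grey ticks mark genes at or below 0.5 FPKM in both libraries, and the unnamed triangles to the right of TAP2 are TAP1, PSMB8, PSMB8-AS1 and PSMB9. The class II genes called higher lie between 495 and 636 kb, and those up to 316 kb are ticks.

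The genes whose pattern over the 4 libraries was nearest to the members' mean were found among 14600 genes above 0.5 FPKM in at least 1 library, by the distance between log2 profiles centred per gene. The mean covered the 5 members that passed 0.5 FPKM, CD74 among them. The nearest were SMAD7, an inhibitor of TGF-beta signalling, with 2.80, 9.41, 1.90 and 16.3 FPKM (distance 0.118), MIR1289-1 (0.156), PRSS16 (0.156), RNF39 (0.172) and BHLHE40 (0.225). BHLHE40, a transcriptional repressor, had 14.6, 41.7, 8.52 and 71.5. All 5 were lowest in 8505C wt and highest in 8505C-PTX, the order of the mean profile by which they were chosen. HLA-DMB and CD74 were lower in 8505C wt than in SW1736 wt too. HLA-DMA (0.0729 in SW1736 wt, 0.323 in 8505C wt) and HLA-DPA1 (0 and 0.0679) were lowest in SW1736 wt, and HLA-DPB1 was at 0 in both.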

How the data were processed

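RNA of the 4 cultures was sequenced with the Universal Plus mRNA-Seq kit. The authors made base calls with bcl2fastq 2.20, trimmed reads with Cutadapt and ERNE, aligned them to hg38 with STAR and summarised genes with StringTie; the annotation and the strand setting are not given in the sources used here. The deposited tables hold coverage (the mean signal per base), FPKM and TPM per gene, and no read counts. From the deposited FPKM, log2 ratios with a pseudocount of 0.1 were computed with Python 3.11.15, NumPy 2.4.6 and pandas 2.3.3, with limits of 0.5 FPKM and 1.5 or -1.5. Requiring 0.5 FPKM in at least 1 library was a choice made here. The deposited TPM served as an alternative unit. Depth came from the largest ratio of deposited coverage to FPKM, divided by 75 bases. Estimated reads are FPKM times depth times the length of the GENCODE 44 protein-coding transcript with ends nearest the deposited row, so they depend on that transcript. Intervals of single levels are exact Poisson at 95% (SciPy 1.17.1), and 3 reads are the floor of a gene listed at 0. Intervals of ratios are exact binomial at 95% on the estimated reads of the 2 libraries, scaled by depth. Counting intervals of log2 ratios join the lower Poisson limit of one library with the upper limit of the other. Scripts were tested on simulated data. Changed genes there started above the members' wt levels, so calls of genes near 0 were not covered by that test.

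With 1 library per condition no p-value was computed. The named genes are all 10 members, listed genes called in at least 1 line (up to 6 per list), the promoter factors and interferon gamma route genes, the 5 nearest patterns and ABCB1. BRD2, TAP1, HLA-DOA, HLA-DOB, MIF, CD44, CD80, CD86, PRDM1 and the near copies of DR and DQ genes were named after their values were seen. The same holds for CXCL9, CXCL10, CXCL11, GBP1, GBP4, GBP5 and IDO1. The members and lists were chosen with earlier results of these data known. Whether reads of HLA alleles unlike the reference were aligned was not tested. Some genes that this rule names are not reported here.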

Additional observations from a re-analysis of the deposited data

Results flagged for a closer look

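CD40, a receptor that acts beside class II in antigen presenting cells, moved in opposite directions in the 2 lines, with a log2 change of -3.51 in SW1736 and 5.96 in 8505C. Its levels were 38.0 FPKM in the parental and 3.25 in the resistant SW1736 library, and 0 and 6.10 in those of 8505C. Against 8505C wt, SW1736-PTX was called higher (log2 5.06), so the direction in SW1736-PTX turns with the reference. The difference between the lines was not tested, since each condition has 1 library.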

How the results depend on the processing

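Each count, median and member was recomputed under other settings. Of 82 counts, 69 stayed within 1.5-fold. Of 38 medians 27, and of 124 member values 100, stayed inside the counting interval of the main value. The 1 reversal was CD74 in SW1736, at 0.56 against 8505C wt. Some settings could not change these values, so these shares overstate the stability. Limits of 1 and 2 enter no median or member value. Settings on rows of one name change nothing, since the members' rows off the primary chromosomes were at 0. Admitting any FPKM above 0 leaves a single member's value as it is. With a pseudocount of 1, the members called higher numbered 1 in SW1736, 2 in 8505C and 1 between the PTX lines, and those called lower 0 in SW1736 and 0 between the wt lines. With 0.5 FPKM required in both libraries, the calls were 0 higher and 0 lower in SW1736, 0 higher in 8505C, 0 lower between the wt lines and 1 higher between the PTX lines, and no median could be given for the first 3. With 8505C wt as the reference, 0 members were called lower in SW1736-PTX. A limit of 2 left 1 called higher between the PTX lines, and TPM gave 1 called higher between the wt lines. Medians in SW1736 were 5.43 (pseudocount 0.01), 1.14 (pseudocount 1), 1.52 (any FPKM above 0) and 4.11 (TPM). In 8505C they were 5.64 (0.01), 1.57 (1) and 4.55 (TPM), and between the wt lines -4.40 (0.01), -1.16 (1), -0.30 (any above 0) and -1.08 (TPM). No paired analysis was possible because the labels give no replicate numbers and each condition has 1 library; the 2 lines were not treated as replicates. Members under about 15 estimated reads (CIITA, most wt values) limit the precision.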

Other observations

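PRDM1, a repressor of CIITA, had 0.0158, 0.480, 0.0164 and 0.377 FPKM in the order used above (wt then PTX, SW1736 before 8505C). It was higher in the PTX library of each line but stayed under 0.5 FPKM and was therefore not compared. CDH5, an endothelial cadherin, was listed at 55.9 FPKM in 8505C wt and at 4.53 in 8505C-PTX, beside 0 in SW1736 wt and 0.225 in SW1736-PTX. GBP2, an interferon-induced GTPase, had 0.214, 0.587, 0.0148 and 1.83 FPKM and was called higher in 8505C (log2 4.07). In SW1736-PTX it was not called against SW1736 wt (1.13) and was called higher against 8505C wt (2.58).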
